A study of Arabidopsis thaliana with 24 samples.

Results

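K>R 3 plants were compared with wild type (WT) in abscisic acid (ABA)-treated leaves of Arabidopsis thaliana, with 3 K>R 3 ABA libraries and 3 WT ABA libraries out of 24 in the series. Members were taken by title: all libraries of the genotype K>R 3 under ABA treatment, replicates 1 to 3, against all WT libraries under the same treatment, replicates 1 to 3. K>R 3 plants lack the native histone variant H2A.Z by their label and express HTA11, an H2A.Z gene, with arginine in place of the third lysine, residue 13. WT plants carry their own H2A.Z genes. The remaining libraries were K>R 3, WT, Delta28 (HTA11 without its first 28 residues) and K>R 1-9 (9 tail lysines replaced) leaves under mock or ABA solution. All plants were 3 weeks old, and leaves had been painted for 4 h with 10 uM ABA or with a DMSO mock in water. Silwet L-77, added to each solution at 0.01% to wet the leaf, was common to all groups. About 100 mg of leaf went into each replicate, and 500 ng of RNA entered a 3′ end kit. The labels give neither the promoter nor the 3′ end of the HTA11 transgene, nor whether K>R 3 is 1 insertion line. No group expresses unmodified HTA11 in the null background, so the substitution cannot be told apart from the rest of the transgenic design.

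H2A.Z replaces canonical H2A in nucleosomes near gene starts, where the SWR1 remodelling complex deposits it. Acetylation of lysines on its N-terminal tail is associated with active genes, and a lysine changed to arginine can no longer be acetylated. ABA is the hormone through which plants respond to water deficit and salinity. It binds PYR/PYL receptors, which block clade A PP2C phosphatases and so release SnRK2 kinases to activate transcription factors of dehydration genes. The comparison bears on whether leaves with a single altered tail lysine differ from WT in their transcripts under ABA.

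The first 20 codons of HTA11 (AT3G54560) are shown because they hold the altered residue. They lie on the plus strand at chr3:20196532-20196591 of TAIR10.1 (RefSeq), in coding sequence, and capitals mark the third lysine codon, residue 13.
HTA11 first codons: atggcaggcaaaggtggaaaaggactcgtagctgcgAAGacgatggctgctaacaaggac
The codon counted as the third lysine in RefSeq fell on residue 13, as in the labels, and the first 28 residues held 9 lysines of a 136-residue protein. The deposited gene tables give read counts and not bases, so the lysine and arginine codons could not be read from them.

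The 3 K>R 3 ABA libraries held 4129298, 5108251 and 12850237 rounded counts, against 3193766, 10417109 and 15086282 in WT ABA. A count of 3 corresponded to between 0.189 and 0.941 CPM (the usual unit of read counts scaled by library size) in the 6 libraries. Pearson correlations of log2 CPM across genes were 0.921 to 0.928 among K>R 3 libraries, 0.946 to 0.948 among WT libraries and 0.902 to 0.956 between genotypes. The highest of them all paired K>R 3 replicate 3 with WT replicate 2. Every K>R 3 library stood nearer to some WT library than to its own group. The best correlations with WT were 0.933, 0.938 and 0.956 for K>R 3 replicates 1, 2 and 3, against 0.928, 0.928 and 0.926 within K>R 3. Results that rest on K>R 3 replicate 3 are given with and without it. The deposited gene models leave out the exon of lowest coordinate, which for a minus-strand gene is the exon with the 3′ end that this assay counts. Minus-strand genes therefore held only 13.6% to 16.8% of counts, their levels rest on few reads. Genes of a single exon are not analysed here.

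Across 13874 genes tested, HTA9, another gene for H2A.Z, was the only one that passed, and it was lower in K>R 3. That is 0.00721% of the genes tested by edgeR's quasi-likelihood test with a Benjamini-Hochberg adjusted p below 0.05. HTA9 (AT1G52740) stood at 62.5, 67.4 and 69.6 CPM in K>R 3 ABA leaves, against 386, 344 and 355 CPM in WT ABA leaves. All K>R 3 libraries lay far below all WT libraries, and the groups did not overlap. The means were 66.5 ± 3.63 CPM in K>R 3 and 362 ± 22.0 CPM in WT (SD, n = 3 each), a log2 fold change of -2.44 (SE 0.19, 95% interval -2.84 to -2.04; adjusted p 1.97e-07 by edgeR's quasi-likelihood test). In mock leaves, which share no library with this comparison, HTA9 had 59.1, 53.9 and 57.2 CPM in K>R 3 and 303, 267 and 411 CPM in WT. The mock difference was -2.53 on the log2 scale (adjusted p 1.13e-07 by the same edgeR test), and the difference between the treatments' effects was 0.09 with an SE of 0.26. HTA9 ranged from 77.0 to 118 CPM in Delta28 ABA leaves and from 76.7 to 82.8 CPM in K>R 1-9 ABA leaves, log2 fold changes of -1.97 and -2.19 against the same 3 WT libraries. K>R 3 plants lack native H2A.Z by their label, and whether the lower HTA9 level belongs to that background was not tested.

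HTA11 itself, the gene that the transgene carries, had 20.1, 5.66 and 22.1 CPM in K>R 3 ABA leaves, against 4.71, 9.42 and 9.79 CPM in WT ABA leaves. Replicates 1 and 3 of K>R 3 were above every WT library, replicate 2 was among them, and the groups overlapped. The log2 fold change was 0.96 with a 95% interval of -0.89 to 2.81 (adjusted p 0.837 by edgeR's quasi-likelihood test). K>R 1-9 ABA leaves held 517 to 1008 CPM of HTA11, and Delta28 ABA leaves 2.55 to 8.57 CPM. Among K>R 3 mock leaves, replicates 1 and 3 had 10.9 and 36.0 CPM while replicate 2 had 788 CPM. That mock library stands apart: its HTA11 level lies above all other K>R 3 libraries. The level is inside the range of K>R 1-9 ABA leaves but above K>R 1-9 mock leaves, where the H2A.Z genes together summed to 479 to 546 CPM. Whether its label is right was not tested, and mock results below are also given without it where they lead. Without it the ABA comparison still gave 1 called gene, the mock comparison 1 and their difference 0, and the mock log2 fold change of HTA9 was -2.50. The other H2A.Z genes, HTA8 and HTA4, had 0 counts in all 6 ABA libraries. HTA8 lies on the minus strand with its 3′ exon missing from the gene models, so its absence here says nothing of its expression.

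**Figure D1:**
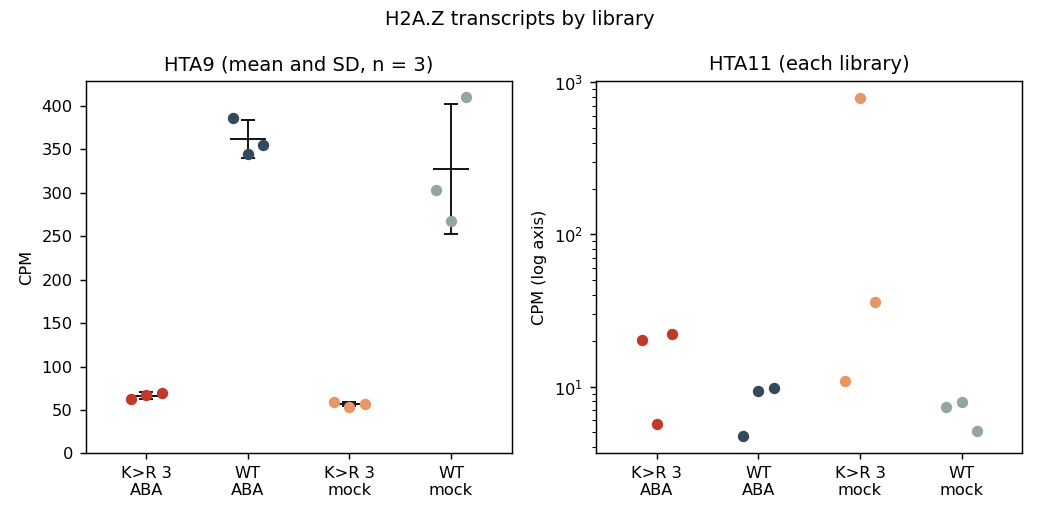
CPM of HTA9 (left, linear axis, bars are mean and SD, n = 3) and HTA11 (right, log axis) in each library of K>R 3 and WT under ABA and mock solution. HTA9 lies between 53.9 and 69.6 CPM in every K>R 3 library and between 267 and 411 CPM in every WT library, whereas HTA11 overlaps between genotypes under ABA and reaches 788 CPM in 1 K>R 3 mock library.

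Other H2A genes and genes of the machinery that handles H2A.Z held 0 called genes, with list medians between -0.20 and 0.04. Of the other H2A genes, 7 of 9 were tested and 0 were called, with a median log2 fold change of 0.04, against 0.01 over all genes tested. HTA13, a canonical H2A gene, had 25.3, 17.4 and 25.8 CPM in K>R 3 and 42.7, 32.5 and 32.6 CPM in WT. The groups did not overlap, but the log2 fold change of -0.65 did not pass (adjusted p 0.495 by edgeR's quasi-likelihood test). All 13 subunits of SWR1 and INO80 were tested, with a median of -0.05, a range of -0.44 to 0.64 and 0 called. ARP6, an actin-related subunit of SWR1, had 3.75, 3.78 and 3.48 CPM in K>R 3 and 1.88, 2.08 and 2.91 CPM in WT, from a minus-strand gene with few reads. Of 9 subunits of NuA4, the complex that acetylates H2A.Z and H4 tails, 8 were tested with a median of -0.20 and 0 called. Only 1 of these 8 lies on the plus strand, so the NuA4 values rest mostly on minus-strand gene models.

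Outside HTA9, edgeR's quasi-likelihood test gave no adjusted p under 0.186. DESeq2 called 35 of the same 13874 genes (8 higher, 27 lower), HTA9 among them, so the number of calls depends on the test. In the rest of the text a gene is called by edgeR unless DESeq2 is named. The estimated biological coefficient of variation was 0.364, and the 95% interval of a gene's log2 fold change reached a median of 0.85 to either side. That width is for a single gene without adjustment and is not the limit for a call. Of 1694 genes with an absolute log2 fold change above 1, 1 was called. Changes smaller than 0.85, and many larger ones, were not detectable for most genes at this depth and replication. Without adjustment, 1199 genes (8.64%) had p below 0.05. Of these, 526 (3.79% of the genes tested) were higher and 673 (4.85%) lower in K>R 3. Libraries of the 2 genotypes did not overlap, with K>R 3 on the higher side, in 865 genes (6.23%), and on the lower side in 865 genes (6.23%).

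The 9 genes with the next smallest p, 2 with higher and 7 with lower levels in K>R 3, were not called by edgeR's quasi-likelihood test. DESeq2 called all 9 on the same counts, with adjusted p of 0.00389 to 0.0207. LACS2, a long-chain acyl-CoA synthetase that makes cutin precursors in the epidermis, had 51.8, 38.1 and 24.6 CPM in K>R 3 and 118, 82.7 and 86.5 CPM in WT. Every K>R 3 library lay under every WT library, with a log2 fold change of -1.33 (95% interval -1.93 to -0.73; adjusted p 0.196 by edgeR's quasi-likelihood test). AT1G29670, a GDSL-type lipase gene, stood at 147, 133 and 172 CPM in K>R 3 and 389, 267 and 538 CPM in WT, a log2 fold change of -1.40 (95% interval -2.02 to -0.78). A second GDSL-type lipase gene, AT4G28780, had 1.64, 1.89 and 1.86 CPM in K>R 3 and 14.7, 2.44 and 27.9 CPM in WT. WT replicate 2 was near the K>R 3 level there. Without that library the log2 fold change of AT4G28780 was -3.61 with an adjusted p of 0.0122 in edgeR's test, against -3.05 and 0.196 with all libraries. That library was singled out after its value was seen, and leaving out the nearest value favours a lower p. Without K>R 3 replicate 3 AT4G28780 was not called. AT2G22230, annotated as a thioesterase, had 31.9, 30.8 and 55.1 CPM in K>R 3 and 82.8, 81.7 and 121 CPM in WT, again without overlap.

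LACS2, the GDSL-type lipase genes and AT2G22230 had smaller fitted values under mock solution. They were picked for small p under ABA, so their ABA values are selected and their mock values are not. The mock log2 fold changes of K>R 3 against WT were -0.14 for LACS2, -0.16 for AT1G29670, -0.15 for AT4G28780 and -0.67 for AT2G22230, none of them called. Without K>R 3 mock replicate 2 they were -0.05, -0.27, 0.05 and -0.62 in the same gene order. LACS2 in mock leaves had 49.2, 35.5 and 38.6 CPM in K>R 3 and 44.5, 43.9 and 47.4 CPM in WT. The difference between the ABA and mock effects of LACS2 was -1.19 (SE 0.41), or -1.29 (SE 0.43) without K>R 3 mock replicate 2, with an adjusted p of 1.00 over all libraries in edgeR's test of that difference.

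Among the other genes with small p, AT2G38780, annotated as a cytochrome c oxidase subunit, had the smallest. It stood at 129, 297 and 132 CPM in K>R 3 and 56.5, 74.3 and 72.4 CPM in WT, without overlap, a log2 fold change of 1.45 (95% interval 0.88 to 2.02; adjusted p 0.186 by edgeR's quasi-likelihood test). MES5, a member of the methyl esterase family, had 80.3, 191 and 89.7 CPM in K>R 3 and 31.7, 43.7 and 13.9 CPM in WT, a log2 fold change of 2.02 (95% interval 1.11 to 2.93). Both genes were higher in every K>R 3 library, and replicate 2 was the highest of the 3 for each. The mock log2 fold changes were 0.75 for AT2G38780 and 1.35 for MES5, neither called. Without K>R 3 mock replicate 2 they were 0.79 and 1.32. Against the shared WT ABA libraries AT2G38780 was at 0.71 in Delta28 and 1.44 in K>R 1-9, and MES5 at 1.07 and 2.00. The K>R 1-9 value of AT2G38780 passed (adjusted p 0.0461 by edgeR's quasi-likelihood test), and the other 3 did not. AT2G46810, a basic helix-loop-helix transcription factor gene, had 7.03, 1.51 and 6.55 CPM in K>R 3 and 17.3, 13.9 and 20.9 CPM in WT, a log2 fold change of -1.77 (95% interval -2.53 to -1.01). Its mock log2 fold change was 0.06.

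The 2 remaining genes of this group are on the minus strand and rest on few reads. NAI2, whose product is needed for the endoplasmic reticulum bodies of Brassicaceae, had 1 count over the K>R 3 libraries and 59 over the WT libraries, a ratio of 0.0232 scaled by library size with an exact 95% interval of 0.000579 to 0.135. AT1G35180, annotated with a TLC lipid-sensing domain, had 1 count in K>R 3 and 56 in WT, a ratio of 0.0245 with an interval of 0.000609 to 0.142. Without K>R 3 replicate 3 the ratios were 0.0533 for NAI2 and 0.0561 for AT1G35180. The intervals cover counting error only.

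**Figure D2:**
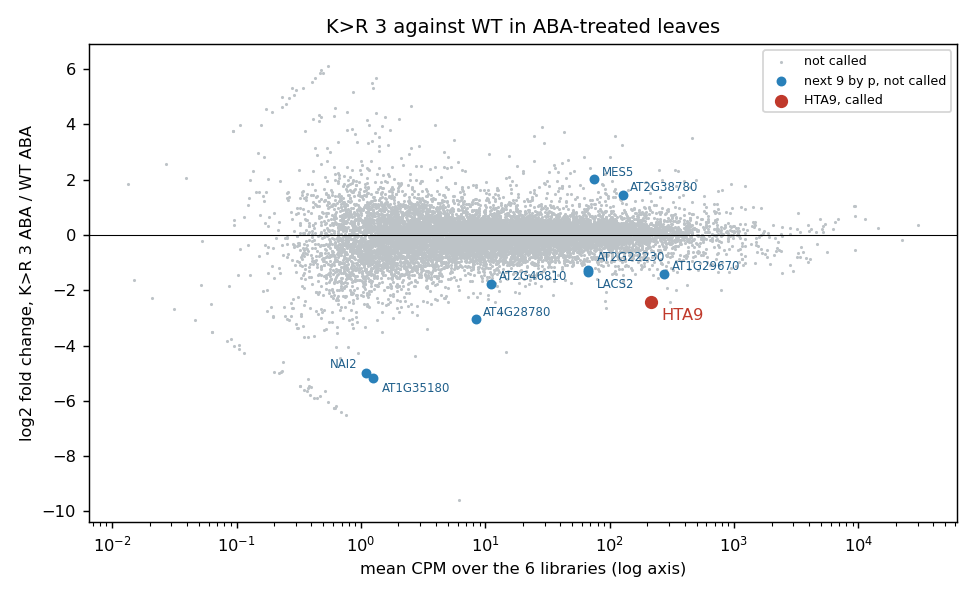
Log2 fold change of K>R 3 ABA over WT ABA leaves (vertical axis) against mean CPM over the 6 libraries (horizontal, log axis) for 13874 genes. HTA9, in red, is the called gene at -2.44, and the 9 genes with the next smallest p, in blue, were not called by edgeR but were by DESeq2. The slanted rows of points at low CPM are genes with few or no counts in 1 genotype, whose fitted fold depends on the prior count.

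**Figure D3:**
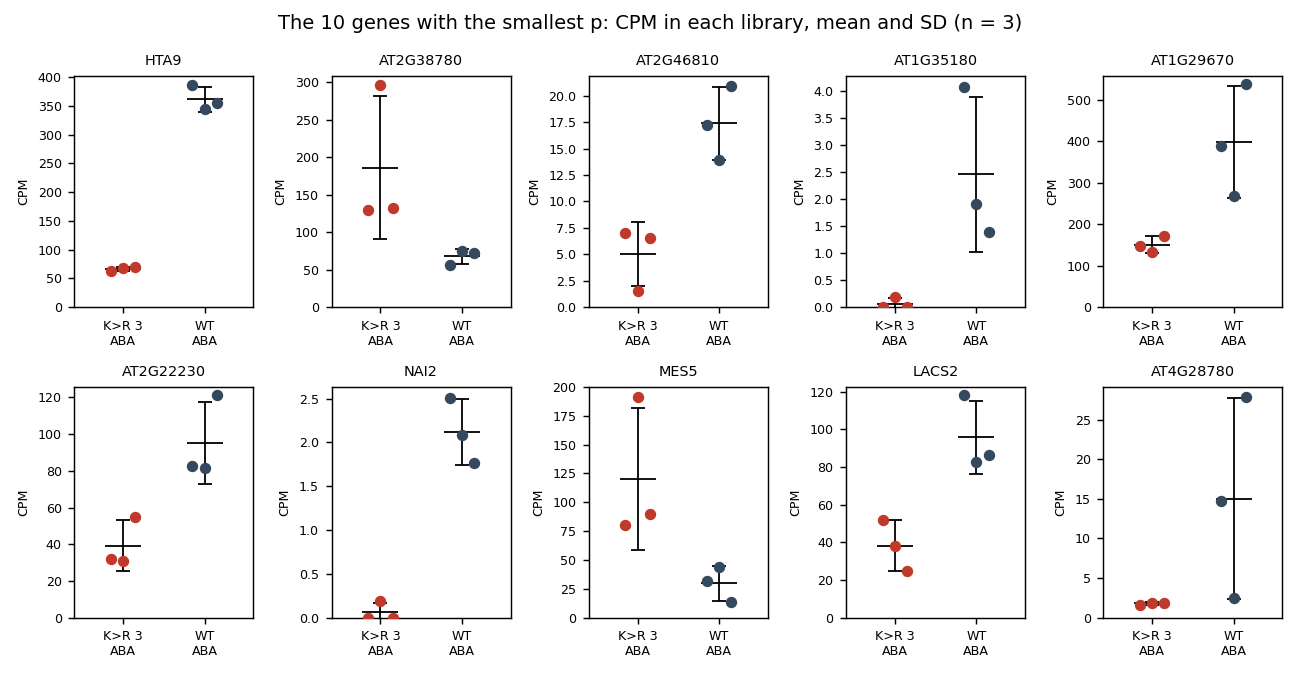
CPM in each K>R 3 ABA library (left) and WT ABA library (right) for the 10 genes of smallest p, on linear axes, with mean and SD (n = 3 each). HTA9 alone was called by edgeR, whereas DESeq2 called all 10. The points of the genotypes do not overlap in any of the 10 panels, a criterion that 6.23% of genes met on the higher side and 6.23% on the lower side.

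The core of ABA signalling was measured in part and gave no called gene. Of 11 receptor genes of the PYR/PYL family, 5 had an entry and 4 were tested, with log2 fold changes between -0.44 and 0.44. PYL8, on the plus strand, had 87.1, 66.8 and 115 CPM in K>R 3 and 102, 97.3 and 82.2 CPM in WT. All 9 clade A PP2C phosphatase genes, the negative regulators that ABA itself induces, were tested, with 3 above 0, 6 below 0 and a median of -0.13. HAB2 had 140, 220 and 150 CPM in K>R 3 and 89.7, 139 and 86.7 CPM in WT, so that its lowest K>R 3 library was just above its highest WT library. Its log2 fold change was 0.69 (95% interval 0.13 to 1.25; adjusted p 0.467 by edgeR's quasi-likelihood test). The related HAB1 had 129, 218 and 179 CPM in K>R 3 and 200, 329 and 47.9 CPM in WT, with WT replicate 3 lowest and replicate 2 highest of all 6. Of 9 SnRK2 kinase genes 8 were tested, with a median of 0.23. OST1, the main SnRK2 of guard cells, had 23.4, 46.3 and 48.1 CPM in K>R 3 and 37.3, 33.5 and 15.6 CPM in WT.

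Transcription factors and end products of the ABA pathway held 0 genes called by edgeR. Among 18 genes for ABA transcription factors and AFP repressors, 15 were tested, 9 lay above 0 and 6 below, and the median was 0.21. MYB2, an ABA- and drought-induced factor, had 150, 167 and 66.1 CPM in K>R 3 and 53.0, 79.5 and 29.8 CPM in WT, a log2 fold change of 1.24 (95% interval 0.30 to 2.17; adjusted p 0.414 by edgeR's quasi-likelihood test). ABF3, a bZIP factor that binds ABA-responsive elements, had 120, 189 and 208 CPM in K>R 3 and 225, 359 and 125 CPM in WT. Of 22 genes for LEA proteins, dehydrins and other ABA markers, 20 were tested, with 9 above 0, 11 below 0, a median of -0.23 and 0 called. RD29A, a classical dehydration marker, had 3627, 6387 and 2445 CPM in K>R 3 and 5972, 5528 and 4002 CPM in WT. RD29B had 122, 799 and 250 CPM in K>R 3 and 183, 412 and 139 CPM in WT, with replicate 2 highest in both genotypes. COR15B, a cold- and ABA-induced chloroplast protein gene, was the marker of smallest p, with 11.9, 12.8 and 8.57 CPM in K>R 3 and 34.5, 10.5 and 36.4 CPM in WT.

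Of 12 genes for ABA metabolism and transport, 10 were tested, with 3 above 0, 7 below 0 and a median of -0.24. BG1, the glucosidase that releases ABA from its glucose ester, had 555, 3286 and 1791 CPM in K>R 3 and 358, 1043 and 248 CPM in WT, a log2 fold change of 1.77 with a 95% interval of 0.06 to 3.48. Replicate 2 was highest in both genotypes. All 12 genes of osmolyte and sugar metabolism were tested, with 6 above 0 and 6 below. GOLS3, a galactinol synthase gene known for cold response, had 6.09, 0.566 and 4.45 CPM in K>R 3 and 26.4, 11.6 and 22.8 CPM in WT, without overlap. Its log2 fold change was -2.43 (95% interval -3.70 to -1.17; adjusted p 0.298 by edgeR's quasi-likelihood test, 0.0199 by DESeq2).

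To describe the ABA response as a whole, genes were taken that ABA induced or repressed in both Delta28 and K>R 1-9, from libraries that enter neither side of the K>R 3 and WT contrast. A response in WT was not required, so the sets can favour genes that respond more in those transgenic lines than in WT. Of the 564 induced genes (4.07% of those tested), 406 lay above 0 and 158 below in K>R 3 against WT, and the median log2 fold change was 0.22, beside 0.01 for all genes tested. Of these 564, 77 (13.7%, beside 3.79% of all genes) were higher at unadjusted p below 0.05 and 9 (1.60%, beside 4.85%) lower, 0 called. The mean log2 CPM of the induced set was 5.99, 6.25 and 6.0 in K>R 3 ABA libraries and 5.90, 6.16 and 5.50 in WT ABA libraries. WT replicate 3 was the lowest, the other libraries overlapped, and without WT replicate 3 the median log2 fold change was 0.07, and without K>R 3 replicate 2 it was 0.13. In mock leaves the same genes had a median of 0.19 in K>R 3 against WT, and 0.12 without K>R 3 mock replicate 2. Against the shared WT ABA libraries the median was 0.34 in Delta28 and 0.39 in K>R 1-9, whose ABA libraries also chose the set.

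Of the 254 repressed genes (1.83% of those tested), 24 lay above 0 and 230 below, with a median of -0.45. At unadjusted p below 0.05, 63 of them (24.8%, beside 4.85% of all genes) were lower in K>R 3 and 1 was higher (0.394%, beside 3.79%), 0 called. The mean log2 CPM of the repressed set was 4.16, 3.88 and 4.45 in K>R 3 ABA libraries and 4.71, 4.39 and 5.17 in WT ABA libraries. Most K>R 3 libraries were below the WT libraries, but K>R 3 replicate 3 lay above WT replicate 2, so the groups overlapped. The median was -0.26 without WT replicate 3 and -0.68 without WT replicate 2. In mock leaves the set's median was -0.31, and -0.25 without K>R 3 mock replicate 2, with mean log2 CPM of 5.88, 5.38 and 5.49 in K>R 3 and 5.92, 5.91 and 5.99 in WT, where all K>R 3 libraries lay below all WT libraries. Against the shared WT ABA libraries the set's median was -0.38 in Delta28 and -0.64 in K>R 1-9, whose ABA libraries also chose the set. The set holds 7 photosystem genes and 6 of the antenna and Rubisco genes described next.

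**Figure D4:**
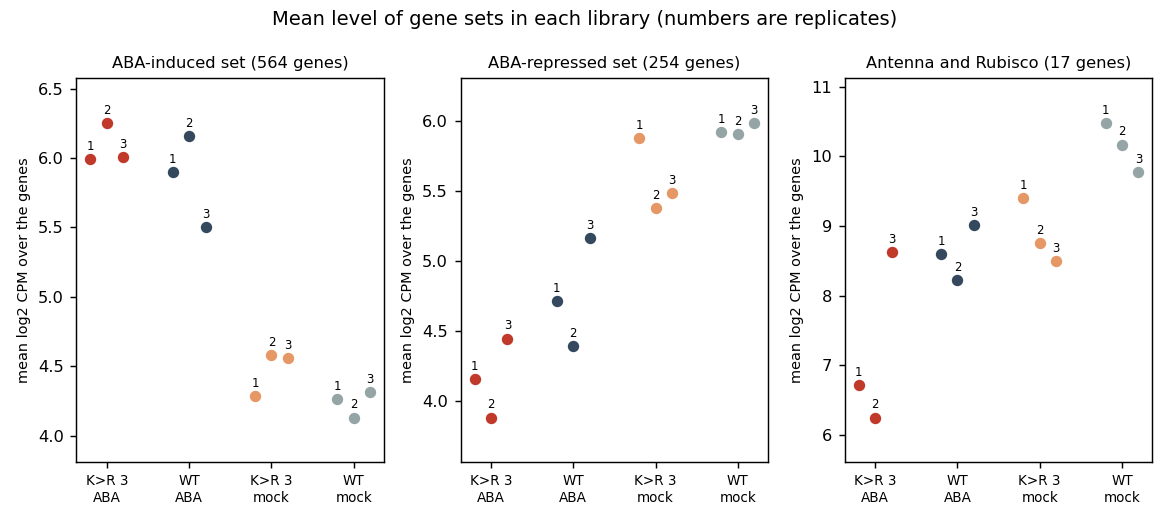
Mean log2 CPM over the ABA-induced set (564 genes), the ABA-repressed set (254 genes) and the antenna and Rubisco genes (17 genes) in each library of K>R 3 and WT, under ABA and then mock solution; small numbers are replicates. K>R 3 ABA replicates 1 and 2 lie at 6.72 and 6.25 in the antenna and Rubisco panel, under every other library, while K>R 3 ABA replicate 3 lies at 8.63, within the WT ABA range of 8.22 to 9.01.

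Nuclear genes of the photosynthetic antenna and of Rubisco had lower fitted values in K>R 3, but 1 of the 3 libraries was at the WT level. Of 22 genes in the list 17 had an entry and were tested, and all 17 had a log2 fold change below 0, with a median of -1.0 and a range of -2.65 to -0.30. None was called, and 5 were lower at unadjusted p below 0.05 (29.4%, beside 4.85% of all genes). Their summed level was 7140, 6305 and 25934 CPM in K>R 3 ABA leaves, against 25543, 19024 and 30059 CPM in WT ABA leaves. Replicates 1 and 2 of K>R 3 were below every WT library, and replicate 3 fell between WT replicates 1 and 3. LHCB3, which encodes a protein of the main light-harvesting trimer of photosystem II, had 914, 712 and 3508 CPM in K>R 3 and 4356, 2360 and 6012 CPM in WT. LHCB2.3, of the same antenna, had 17.1, 17.7 and 41.5 CPM in K>R 3 and 134, 71.0 and 278 CPM in WT. It was the only gene of the 17 without overlap, beside 6.23% of all genes on the lower side. Its log2 fold change was -2.65 (95% interval -4.17 to -1.12, adjusted p 0.336 by edgeR's quasi-likelihood test). RBCS1B, a Rubisco small subunit gene with near-identical copies among which reads may be split, had 10.3, 3.40 and 31.4 CPM in K>R 3 and 50.5, 14.9 and 76.6 CPM in WT.

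Without K>R 3 replicate 3 the median of the antenna and Rubisco genes was -2.09. In that run 10 of the 17 were called lower by edgeR's test, beside 1.07% of all genes called. Without replicate 2 the median was -0.61. Over all genes, leaving out replicate 3 gave 151 called genes of 14118 tested (16 higher, 135 lower) in place of 1. Photosystem genes chosen by the wording of their annotated product, a list made after the values were seen, gave a median of -0.79 over 51 tested genes, with 46 below 0 and 0 called. That median was -1.73 with 19 called without replicate 3 (beside 1.07% of all genes called), and -0.48 without replicate 2.

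In mock leaves, from other libraries, all 17 antenna and Rubisco genes were again below 0, with a median of -1.10 and 10 lower at unadjusted p below 0.05 (beside 5.67% of all genes). Without K>R 3 mock replicate 2 the median was again -1.10, with 5 lower (beside 3.68% of all genes). Their mean log2 CPM there was 9.40, 8.75 and 8.50 in K>R 3 and 10.49, 10.17 and 9.78 in WT, without overlap. Against the shared WT ABA libraries the median of the 17 genes was -0.04 in Delta28 and -0.21 in K>R 1-9. In leaf samples that mix cell types, fewer mesophyll cells and less RNA of these genes per cell cannot be told apart.

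The senescence and chlorophyll breakdown list had 10 of 11 genes tested, 9 above 0 and a median of 0.63, with 2 higher at unadjusted p below 0.05 (beside 3.79% of all genes). SAG13, an alcohol dehydrogenase-like gene that marks senescing leaves, had 782, 873 and 702 CPM in K>R 3 and 221, 277 and 97.1 CPM in WT, without overlap. Its log2 fold change was 1.99 (95% interval 0.67 to 3.30; adjusted p 0.366 by edgeR's quasi-likelihood test), and the mock value was 2.49, or 2.2 without K>R 3 mock replicate 2. NYE2, which removes magnesium from chlorophyll, had 96.3, 102 and 74.6 CPM in K>R 3 and 19.5, 50.4 and 7.14 CPM in WT. SEN1, a dark-induced gene, lay on the other side, with 17.1, 22.1 and 12 CPM in K>R 3 and 45.5, 42.9 and 36.3 CPM in WT.

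The jasmonate list had 18 of 20 genes tested, 15 above 0, a median of 0.82 and 4 higher at unadjusted p below 0.05 (22.2%, beside 3.79% of all genes). JAZ9, a repressor of jasmonate response that jasmonate itself induces, had 381, 715 and 814 CPM in K>R 3 and 332, 273 and 229 CPM in WT, without overlap. VSP1, a vegetative storage protein gene and jasmonate marker, had 30.4, 191 and 467 CPM in K>R 3 and 11.3, 55.6 and 4.23 CPM in WT, spread over more than 10-fold within each genotype. The median of the list was between 0.65 and 1.02 when any 1 of the 6 libraries was left out. It was 0.91 in mock leaves (1.13 without K>R 3 mock replicate 2), and -0.22 in Delta28 and 1.16 in K>R 1-9 against the shared WT ABA libraries.

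Under ABA the flavonoid and salicylate lists each leaned on 1 library. Of 18 flavonoid and anthocyanin genes, 15 were tested, 12 lay above 0 and the median was 1.08, but 0.23 without K>R 3 replicate 2. TT19, a glutathione transferase needed for anthocyanin accumulation, had 36.8, 431 and 143 CPM in K>R 3 and 19.5, 23.4 and 8.59 CPM in WT. The groups did not overlap, and the log2 fold change was 3.58 (95% interval 1.78 to 5.39; adjusted p 0.249 by edgeR's quasi-likelihood test, 0.0274 by DESeq2). LDOX, an enzyme of anthocyanin synthesis on the minus strand, had 19 counts over the K>R 3 libraries and 0 over the WT libraries, at least 8.68-fold higher against a floor of 3 counts over the WT group. K>R 3 replicate 1 was also at 0, so the groups overlapped, and adjusted p was 0.366 in edgeR's test. The bound was 4.22-fold without K>R 3 replicate 2, where 7 K>R 3 counts were left, 5.49-fold without WT replicate 2 and 4.11-fold without WT replicate 3. The salicylate and immune list had 21 of 24 genes tested, 16 above 0 and a median of 0.37, but -0.31 without K>R 3 replicate 1. PR5, a pathogenesis-related gene of salicylate response, had 389, 17.2 and 45.9 CPM in K>R 3 and 43.0, 18.0 and 36.3 CPM in WT, so that replicate 1 alone was high. In mock leaves, from other libraries, both lists also lay above 0. The flavonoid median there was 1.45 with 14 of 15 genes above 0, and 1.63 without K>R 3 mock replicate 2. The salicylate median was 1.00 with 19 of 21 genes above 0, and 0.85 without that mock library.

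**Figure D5:**
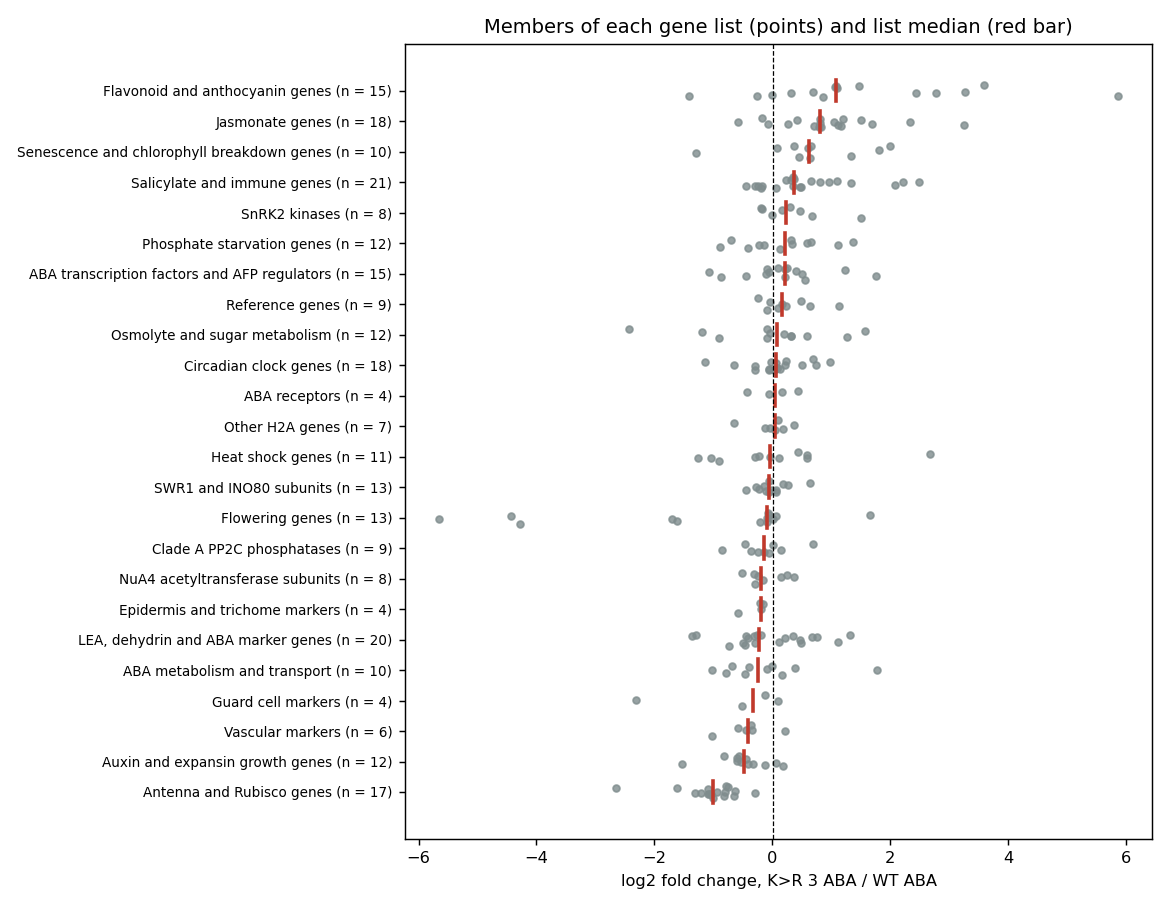
Log2 fold change of K>R 3 ABA over WT ABA leaves for each tested gene (points) of lists with at least 4 tested genes, ordered by list median (red bars); the dashed line is the median of all genes, 0.01. No gene shown was called by edgeR, and GOLS3 and TT19 were called by DESeq2. Medians run from -1.0 for the antenna and Rubisco genes to 1.08 for the flavonoid and anthocyanin genes.

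Growth and flowering genes had 0 called. Of 16 auxin and expansin genes 12 were tested, 2 above 0 and 10 below, with a median of -0.49 and summed levels of 267, 357 and 451 CPM in K>R 3 and 514, 519 and 468 CPM in WT. All 3 K>R 3 sums lay under the WT sums, but the mean log2 CPM of the genes overlapped, at 1.58 to 3.34 in K>R 3 and 2.58 to 3.35 in WT. Of these 12 genes, 0 were lower at unadjusted p below 0.05 (beside 4.85% of all genes). On the lower side, 0 were without overlap (beside 6.23% of all genes). Of 17 flowering genes 13 were tested, 3 above 0 and 10 below, with a median of -0.10. At unadjusted p below 0.05, 3 were lower (23.1%, beside 4.85% of all genes) and 1 higher (7.69%, beside 3.79%). Their mean log2 CPM was 1.82 to 2.21 in K>R 3 and 2.27 to 3.01 in WT, without overlap. In mock leaves their median was 0.04, or 0.02 without K>R 3 mock replicate 2. MAF4, a relative of the flowering repressor FLC, had 2 counts over the K>R 3 libraries and 55 over the WT libraries, a scaled ratio of 0.0498 with an exact interval of 0.00589 to 0.189 (adjusted p 0.448 in edgeR's test). Without WT replicate 2, where 9 WT counts were left, the ratio was 0.193. It was 0.0265 without WT replicate 3. AGL24, a promoter of flowering, had 1 count in K>R 3 and 35 in WT, a ratio of 0.0392 with an interval of 0.000964 to 0.233, and its gene lies on the minus strand. Clock genes (18 tested, median 0.07), heat shock genes (11, -0.03) and phosphate starvation genes (12, 0.22) held 0 called genes. The 9 reference genes had a median of 0.16. UBQ10, a polyubiquitin gene of common use in normalisation, had 6914, 8386 and 7473 CPM in K>R 3 and 6367, 5880 and 4001 CPM in WT, a log2 fold change of 0.49 (95% interval 0.01 to 0.97).

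Markers of other cell types gave no called gene, and their part in the results above was not tested. Of 6 guard cell markers 4 were tested, 1 above 0, with summed levels of 221 to 276 CPM in K>R 3 and 205 to 403 CPM in WT and MYB60 at 0. GASA9 (AT1G22690), used as a guard cell marker under the name GC1, had 1.41, 0.755 and 1.46 CPM in K>R 3 and 11.3, 3.80 and 4.80 CPM in WT, without overlap. Its log2 fold change was -2.32 (adjusted p 0.339 by edgeR's quasi-likelihood test). Of 8 vascular markers 6 were tested, 1 above 0, with sums of 178 to 256 CPM in K>R 3 and 180 to 231 CPM in WT and IRX3 at 0. Of 5 epidermis and trichome markers 4 were tested, all 4 below 0, with sums of 203 to 229 CPM in K>R 3 and 228 to 282 CPM in WT and PDF1 at 0. Floral organ markers summed to 2.02 to 3.40 CPM in K>R 3 and 2.51 to 4.71 CPM in WT, with AP3 at 0. Markers of dividing cells and of roots were under 2 CPM in sum in every library, with CDKB2;1 and CASP1 at 0. CYCD3;1, a cyclin of dividing cells, had 2 counts over the K>R 3 libraries and 33 over the WT libraries, a scaled ratio of 0.0831 with an exact interval of 0.00966 to 0.325, and 0.144 without WT replicate 3.

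Whether the effect of K>R 3 depends on ABA was tested by the difference between the ABA and mock contrasts. None of 13874 genes passed in edgeR's quasi-likelihood test, DESeq2 also gave 0, and 512 genes (3.69%) had an unadjusted p below 0.05, or 459 without K>R 3 mock replicate 2. K>R 3 against WT in mock leaves gave 1 called gene (0.00721%), HTA9. The log2 fold changes under ABA and under mock solution, from separate libraries, had a Pearson correlation of 0.33 and a Spearman correlation of 0.35 across the 13874 genes, which are not independent replicates. Of the 1199 genes with unadjusted p below 0.05 under ABA, 347 (28.9%) also had p below 0.05 with the same sign under mock solution and 4 with the opposite sign. In either direction the share was 29.3%, beside 12.9% of all genes with p below 0.05 under mock solution. Without K>R 3 mock replicate 2 the shares were 20.4% with the same sign and 20.6% in either direction, the latter beside 9.04% of all genes.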

How the data were processed

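Leaf RNA was measured by Lexogen QuantSeq FWD V2, which counts 3′ ends of polyadenylated transcripts. RSEM, STAR and Trim Galore are named in the submitters' processing notes, with versions, settings and build not given in the sources used here. The deposited value used is RSEM's expected count per gene, per the file headers, an estimate before normalisation. In each library 1.21% to 2.36% of values were not whole. Values were rounded to whole counts for edgeR 4.0.16 (R 4.3.3). Of 22279 deposited genes, 22233 matched a RefSeq TAIR10.1 locus, which gave symbols, strand and product. For 11593 of 11674 genes compared (99.3%), the deposited length lacked the exon of lowest coordinate.

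filterByExpr with 8 groups kept 13874 genes. After TMM scaling, group means of all 24 libraries were estimated in 1 quasi-likelihood fit (16 residual degrees of freedom). A call required a Benjamini-Hochberg adjusted p below 0.05, two-sided. CPM values use TMM-scaled library sizes, and set means are log2 CPM with a prior count of 2. Ratios of genes with 1 to 3 counts in a group have exact binomial 95% intervals, which cover counting error only. The labels call the replicates biological without naming plants. DESeq2 1.42.0 was an alternative test.

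Named genes are the H2A.Z genes, the genes of smallest p up to 10 in all (since 1 was called), and up to 2 of smallest p per list. ABF3, PYL8, HAB1, RD29A, RD29B and SEN1 fall outside this rule and were singled out after their values were seen. The members, lists and rule were chosen with earlier results of these data known, so no list is independent support.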

Additional observations from a re-analysis of the deposited data

How the results depend on the processing

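HTA9 was called in every alternative run: other size factors (RLE), no filter on low counts, DESeq2, a fit of the compared libraries alone (adjusted p 0.0264 in edgeR's test), plus-strand genes alone, and leaving out each library. DESeq2 called 35 genes under ABA (8 higher, 27 lower), all 9 genes of next smallest p among them, of which 11 were also among the 151 called without K>R 3 replicate 3, and 67 under mock solution. It called 1 of 12 osmolyte genes (GOLS3), 1 of 15 flavonoid genes (TT19), 2 of 564 ABA-induced and 2 of 254 ABA-repressed genes. DESeq2's share over all genes was 0.252%. Leaving out 1 ABA library at a time gave 1 to 151 called genes, 0 to 16 higher and 1 to 135 lower, and 1 to 2 under mock solution. The high ends came from K>R 3 replicate 3, and without WT replicate 2 there were 2 called genes. Called members ranged from 0 to 10 of 17 antenna and Rubisco genes, 0 to 19 of 51 photosystem genes and 0 to 1 of 15 flavonoid genes. The ranges were 0 to 1 of 12 auxin and expansin, 0 to 4 of 564 ABA-induced and 0 to 13 of 254 ABA-repressed genes. The high ends stood beside 1.07% of all genes called without K>R 3 replicate 3. The cause of these shifts was not tested. The labels do not say that replicate numbers pair the samples, and they were not treated as pairs: deviations of same-numbered K>R 3 and WT libraries correlated at 0.06, 0.19 and -0.01, and K>R 3 replicate 1 correlated best with WT replicate 3 (0.11). In the PP2C and LEA lists, however, replicate 2 had the highest mean log2 CPM in all 4 ABA groups. The replicate block gave 1 called gene under ABA and 0 for the difference. Leaving out K>R 3 mock replicate 2, chosen after seeing the data, changed no count of called genes.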
